A study of Mus musculus with 18 samples.

Results

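The Bcl2 family is the set of proteins that sets the threshold for the mitochondrial route of programmed cell death. This report describes 10 of its genes, *Bcl2*, *Bcl2l1*, *Mcl1*, *Bcl2l11*, *Bid*, *Bad*, *Bak1*, *Bok*, *Bmf* and *Pmaip1*, which were found by their symbols among the 40800 genes of the count table. The 18 RNA-seq libraries came from whole lenses of C57BL/6J knock-in mice, and each of the 6 groups had 3. Wild-type (Cryaa-WT), heterozygous (Cryaa-R49C-het) and homozygous (Cryaa-R49C-homo) lenses of the *Cryaa*-R49C line, which carries a point mutation in αA-crystallin, were taken from 2-day-old mice. Wild-type (Cryab-WT), heterozygous (Cryab-R120G-het) and homozygous (Cryab-R120G-homo) lenses of the *Cryab*-R120G line, which carries a point mutation in αB-crystallin, were taken from 14-day-old mice. Each library was made from the pooled lenses of several animals, so the spread between libraries is a spread between pools. Line and age change together in this design and cannot be told apart. The groups were read from the sample titles, because the genotype field of the 6 *Cryab* mutant libraries names the other line, and counts per gene cannot show a point mutation.

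In this pathway, the pro-survival proteins (encoded by *Bcl2*, *Bcl2l1* and *Mcl1*) hold the effectors *Bak1* and its relative *Bax* in check at the outer mitochondrial membrane, and restrain the effector *Bok* poorly. The BH3-only proteins (*Bcl2l11*, *Bid*, *Bad*, *Bmf*, *Pmaip1* and their relative *Bbc3*) sense stress and release or activate the effectors, which then open the membrane and let cytochrome c reach the caspases. The lens is a tissue in which fibre cells dismantle their own nuclei and organelles during normal differentiation without dying, and in which epithelial cells stay alive on the anterior surface.

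Library totals lay between 14272174 and 29639719 counts, and TMM scaling factors lay between 1.20 and 2.26 in the *Cryaa* line and between 0.488 and 0.774 in the *Cryab* line. Levels are given as CPM, the counts scaled to a common library size after TMM normalisation. Fibre markers were abundant in all libraries, with sums of 23984 to 113962 CPM over 5 genes, although *Lim2*, the sixth fibre marker of the list, had 0 counts in every library. Replicates of a group correlated with r between 0.907 and 0.979 on the log2 CPM scale over genes, lowest in Cryaa-R49C-homo and Cryab-WT. All 10 members passed the filter on low counts, as did 13938 genes in total, and the members held between 0 and 1026 counts in a library.

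No family member changed in the heterozygous lenses of either line or in the homozygous *Cryab*-R120G lenses at the FDR threshold of 0.05, where at most 0.0502% of all genes passed against WT. In the homozygous *Cryaa*-R49C lenses only *Bak1* passed against WT, with a higher level in 2 of 3 libraries, where 9.79% of all genes passed. Between the WT lenses of the 2 ages, *Pmaip1* was higher and *Bok* was lower at 14 days, where 23.2% of all genes passed. The 3 pro-survival genes, and *Bcl2l11*, *Bid*, *Bad* and *Bmf*, passed in none of the 8 comparisons.

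**Figure D1:**
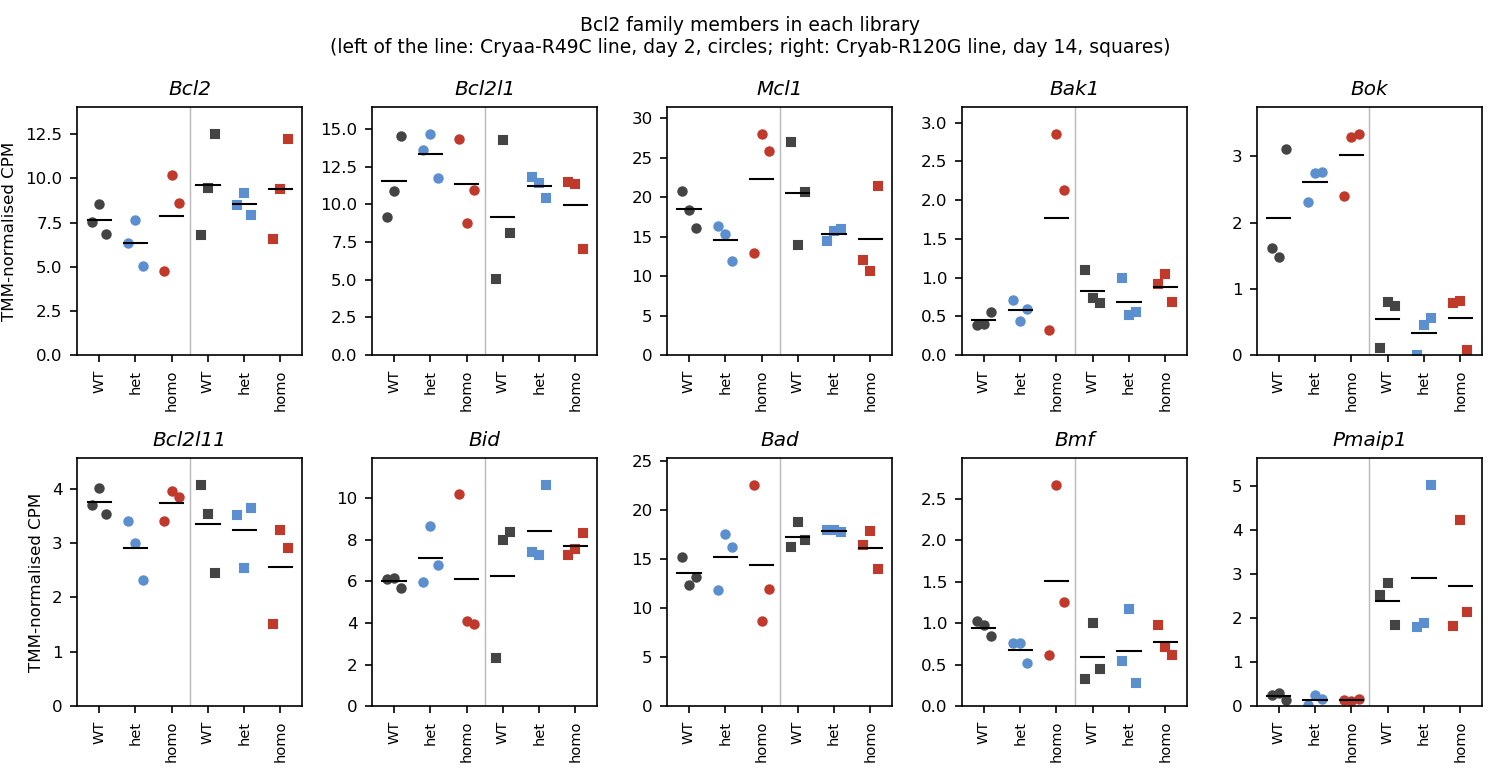
TMM-normalised CPM of each member (y axis, from 0) in the 18 libraries, by group, with a bar at the mean of 3 libraries. *Bak1* reached 2.86 and 2.13 CPM in 2 Cryaa-R49C-homo libraries, and *Pmaip1* lay between 1.80 and 5.04 CPM in the *Cryab* line against 0.0272 to 0.304 CPM in the *Cryaa* line.

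Of the 3 members that passed in a comparison (*Bak1*, *Bok* and *Pmaip1*), the sequences around the start sites of the effectors *Bak1* and *Bok* are shown, taken from RefSeq on GRCm38.p6. *Bak1* spans chr17:27019810-27029009 on the minus strand and *Bok* spans chr1:93685660-93695764 on the plus strand in the GENCODE vM21 annotation of GRCm38. Each window runs from 250 bases before to 50 bases after the RefSeq start, at chr17:27028578-27028877 (minus strand) for *Bak1* and chr1:93685325-93685624 (plus strand) for *Bok*. Capitals mark a match to the CHOP and ATF4 composite element (TGATGNAA), the CCAAT box (CCAAT), the GC box (GGGCGG), the TATA box (TATAAA) or the p53 half-site, searched on both strands.
Bak1: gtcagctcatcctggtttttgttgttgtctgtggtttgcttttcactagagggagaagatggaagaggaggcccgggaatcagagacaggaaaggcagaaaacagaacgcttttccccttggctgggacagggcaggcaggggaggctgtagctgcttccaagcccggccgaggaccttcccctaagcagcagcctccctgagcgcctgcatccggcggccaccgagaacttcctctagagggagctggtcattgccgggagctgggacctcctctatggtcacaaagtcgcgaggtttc
Bok: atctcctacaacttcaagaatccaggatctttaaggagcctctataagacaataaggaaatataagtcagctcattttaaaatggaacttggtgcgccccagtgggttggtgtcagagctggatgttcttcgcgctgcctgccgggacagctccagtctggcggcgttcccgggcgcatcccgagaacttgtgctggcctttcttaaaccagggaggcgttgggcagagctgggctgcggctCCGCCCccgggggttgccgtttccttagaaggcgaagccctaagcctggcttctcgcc

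The *Bak1* window held none of these motifs, and the *Bok* window held 1, a GGGCGG read on the opposite strand, with no overlapping match. Of 32851 mouse windows of this length, 35.7% held GGGCGG, 37.4% held CCAAT, 13.6% held TATAAA, 8.36% held the p53 half-site and 3.97% held TGATGNAA. GC content was 58.3% in the *Bak1* window and 56.3% in the *Bok* window. RefSeq windows were searched for 9 of the 10 members, 15 windows in all, and TGATGNAA was in none of them. Windows on chromosome 18, which holds *Pmaip1*, were left out of this search and of the 32851 windows. A match or its absence says only which letters lie in these windows.

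The first question was how much of each member the lens holds. Per length of gene (CPM divided by the length in kb), *Bad*, whose protein binds and neutralises Bcl-2 and Bcl-xL, was the highest member in Cryaa-WT at 6.75 ± 0.723 CPM per kb (SD, n = 3). *Mcl1*, a short-lived pro-survival protein, followed at 5.30 ± 0.666 CPM per kb, and *Bcl2l1*, which encodes Bcl-xL, at 2.51 ± 0.598 CPM per kb. *Bid*, the BH3-only protein that caspase-8 cleaves, lay at 1.69 ± 0.0785 CPM per kb.

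Below them came *Bok* at 1.17 ± 0.510 CPM per kb and *Bcl2* at 0.836 ± 0.0940 CPM per kb. *Bcl2l11*, which encodes Bim, followed at 0.467 ± 0.0303 CPM per kb. The lowest were *Bak1* at 0.187 ± 0.0401, *Bmf* at 0.180 ± 0.0180 and *Pmaip1*, which encodes Noxa, at 0.0881 ± 0.0318 CPM per kb. In this order the libraries of neighbours overlapped only for *Bid* with *Bok*, *Bok* with *Bcl2* and *Bak1* with *Bmf*.

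In Cryab-WT at 14 days the top of the order by mean was the same, with *Bad* at 8.61 ± 0.656 and *Mcl1* at 5.88 ± 1.87 CPM per kb. *Bcl2l1* at 1.99 ± 1.02 and *Bid* at 1.75 ± 0.957 CPM per kb followed, with libraries that overlapped each other. The lower places changed, because *Pmaip1* stood at 0.905 ± 0.184 CPM per kb, next to *Bcl2* at 1.05 ± 0.312 CPM per kb with overlapping libraries. *Bok* stood at 0.310 ± 0.216 CPM per kb.

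**Figure D2:**
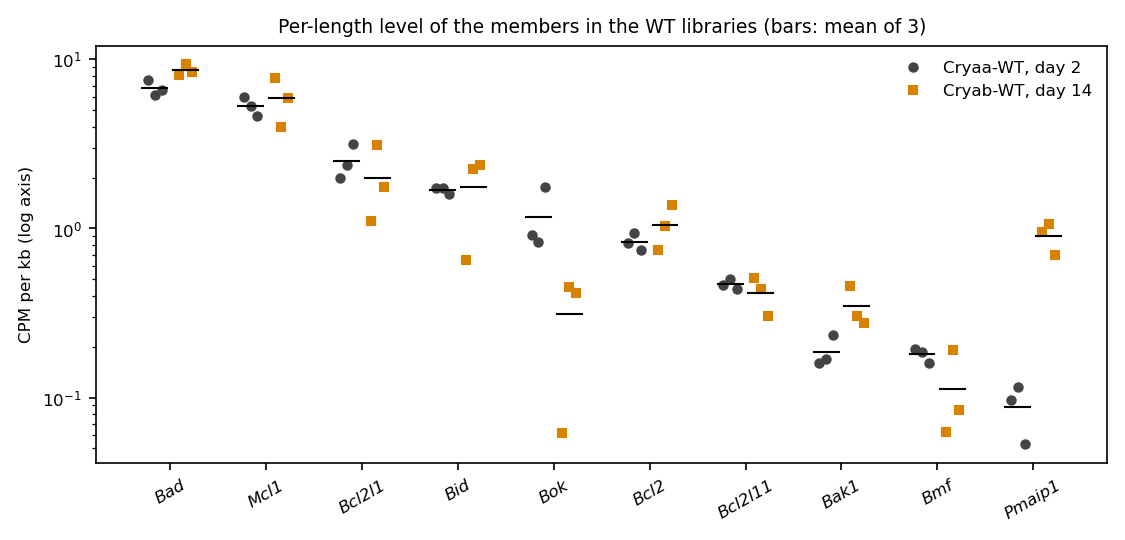
Level per length of each member (CPM per kb, log axis) in the 3 Cryaa-WT libraries at 2 days (circles) and the 3 Cryab-WT libraries at 14 days (squares), with a bar at each mean. *Bad* and *Mcl1* are highest at both ages, and *Pmaip1* moves from 0.0881 to 0.905 CPM per kb.

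The comparison of Cryaa-R49C-homo with Cryaa-WT asked which members differ at 2 days when both *Cryaa* alleles carry the mutation. Of the 10 members, 1 passed edgeR's quasi-likelihood test at an FDR of 0.05, which is close to the 9.79% of all genes that passed. The log2 fold changes of the members ran from -0.76 to 1.95 with a median of 0.06, beside a median of 0.00 over all genes tested. No member had libraries that did not overlap between the groups, while 24.5% of all genes did.

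The 1 member that passed was *Bak1*, the effector that is anchored in the outer mitochondrial membrane. It lay at 0.383, 0.405 and 0.560 CPM in Cryaa-WT replicates 1 to 3, which are 9, 12 and 16 counts. It lay at 0.708, 0.442 and 0.598 CPM in Cryaa-R49C-het and at 0.330, 2.86 and 2.13 CPM in Cryaa-R49C-homo, the last from 15, 91 and 56 counts. Replicates 2 and 3 of Cryaa-R49C-homo were thus above every other library of the series, and replicate 1 was below every WT library of its line. The log2 fold change against Cryaa-WT was 1.95 ± 0.54 (SE, FDR = 0.0226). The 95% interval of this value ran from 0.83 to 3.06.

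This call rested on few counts and on several libraries. Without Cryaa-R49C-homo replicate 1 the *Bak1* log2 fold change was 2.45, and without replicate 2 it was 1.39 and did not pass (FDR = 0.164). It did not pass without Cryaa-R49C-homo replicate 3 (FDR = 0.0662), without Cryaa-WT replicate 1 (FDR = 0.0926) or without Cryaa-WT replicate 2 (FDR = 0.0970). It also did not pass when only the 6 libraries of this comparison were fitted (log2 fold change 1.95, FDR = 0.125).

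**Figure D3:**
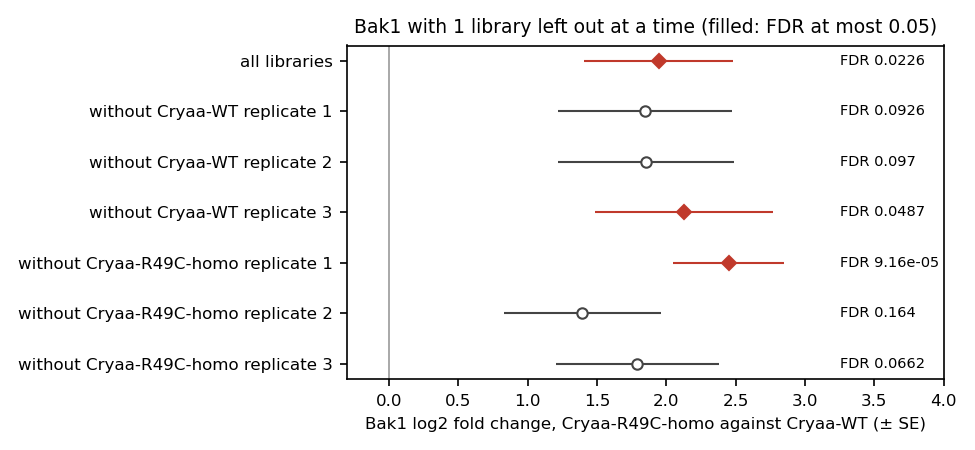
Log2 fold change of *Bak1* in Cryaa-R49C-homo against Cryaa-WT (x axis, ± SE) with all libraries and with 1 library of either group left out. The value stays between 1.39 and 2.45, and filled diamonds mark the fits in which *Bak1* passed an FDR of 0.05.

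Vessel and mesenchyme markers were unevenly spread over the same 3 libraries. The summed level of 10 vessel and mesenchyme markers was 43.6, 170 and 140 CPM in Cryaa-R49C-homo replicates 1 to 3, against 43.6 to 74.0 CPM in Cryaa-WT and 42.7 to 48.4 CPM in Cryaa-R49C-het. This sum was high in the same 2 libraries as *Bak1* and at the WT level in replicate 1. *Cdh5*, the cadherin of endothelial junctions, lay at 1.87, 16.5 and 13.1 CPM in the 3 homozygous libraries and at 2.97 to 3.15 CPM in Cryaa-WT. *Rgs5*, a pericyte gene, lay at 21.3, 99.5 and 77.6 CPM in them and at 18.2 to 27.6 CPM in Cryaa-WT.

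Of the 10 vessel and mesenchyme markers 2 were higher (*Cdh5* and *Rgs5*) and 1 was lower (*Col1a2*) in Cryaa-R49C-homo by the same test, and none was at 0 in all libraries of a group. With 1 of the 6 libraries left out, *Cdh5* passed only without homozygous replicate 1, *Rgs5* only without that library or WT replicate 3, and *Col1a2* without any but WT replicate 3. The summed level of 11 macrophage markers was 22.9, 35.8 and 43.2 CPM in the homozygous libraries against 8.57 to 21.7 CPM in Cryaa-WT, above it in all 3, with 2 of 10 tested markers higher (*C1qa* and *Aif1*). With 1 of the 6 libraries left out, *Aif1* passed only without homozygous replicate 1 and *C1qa* only without that library or WT replicate 3. With only these 6 libraries fitted, *C1qa* passed, and *Aif1*, *Cdh5*, *Rgs5* and *Col1a2* did not. The summed level of 7 erythrocyte markers was 41.5, 150 and 79.5 CPM against 36.8 to 57.8 CPM, and none of 5 tested passed. The share of counts in the single gene *Gm42418* was 2.53%, 24.5% and 42.6% in Cryaa-R49C-homo replicates 1 to 3. The part of these cells and of this gene in the *Bak1* difference was not tested. In bulk lenses, fewer cells of a type and less RNA per cell cannot be told apart.

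**Figure D4:**
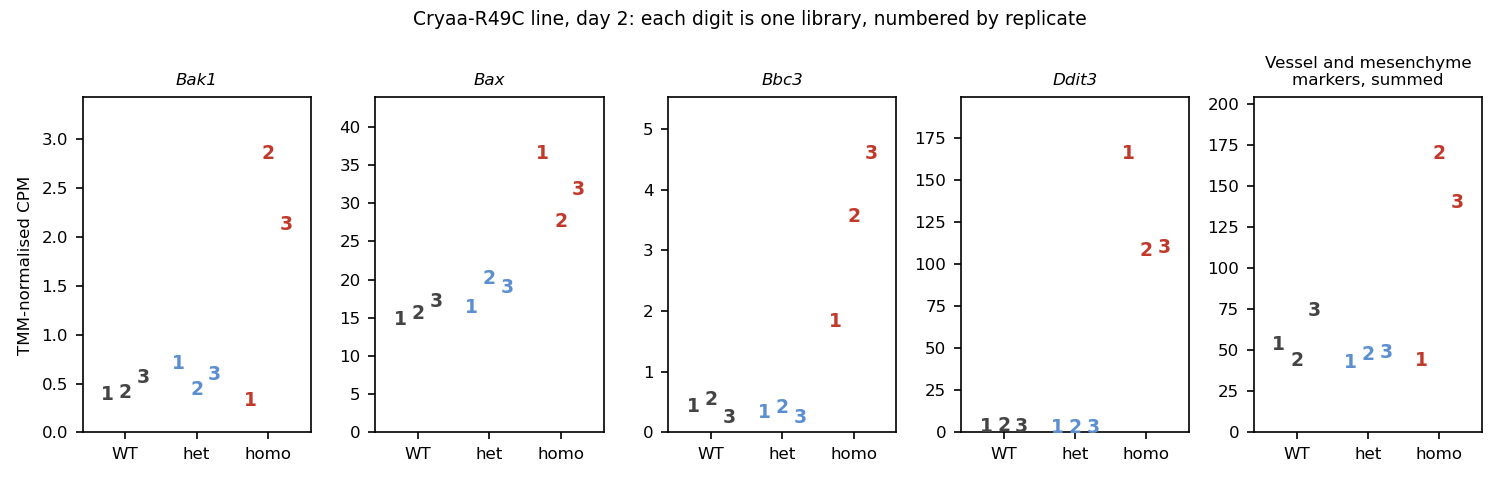
CPM (y axes, from 0) of *Bak1*, *Bax*, *Bbc3*, *Ddit3* and the sum of 10 vessel and mesenchyme markers in the 9 *Cryaa* libraries, each drawn as its replicate number. *Bak1* and the vessel sum are high in homozygous replicates 2 and 3 alone, while *Bax*, *Bbc3* and *Ddit3* lie above all WT and het libraries in all 3.

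*Bak1* has exons that overlap *Ggnbp1* on the other strand, and the strand setting of the counting is not given in the sources used here, so reads of the shared part cannot be told apart. *Ggnbp1* itself lay at 1.01, 0.660 and 1.29 CPM in the homozygous libraries against 1.09 to 1.87 CPM in Cryaa-WT. The same limit holds for *Bcl2* with *D630008O14Rik*, *Bid* with *Bcl2l13* and *Bad* with *Gpr137*. *Bak1* also lies on the chromosome of the mutated gene, 4.65 Mb from *Cryaa*. Of the 62 tested genes between them, 3 were higher and 2 were lower in Cryaa-R49C-homo, or 8.06%, against 9.79% of all genes. The part of *Ggnbp1* reads and of this position in the *Bak1* difference was not tested.

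The other 9 members did not pass against Cryaa-WT. In *Mcl1*, *Bcl2* and *Bmf*, as in *Bak1*, replicate 1 lay below every WT library and replicates 2 and 3 lay above every one. The share of all genes with such a split was not counted. Replicate 1 differed in many genes, as 21.5% of all genes passed without it in place of 9.79%, so the split is not particular to the family. *Mcl1* lay at 13, 28.1 and 25.9 CPM in the homozygous libraries, on both sides of the 16.2 to 20.8 CPM of Cryaa-WT, and *Bcl2* at 4.78, 10.2 and 8.63 CPM around 6.86 to 8.57 CPM. *Bmf*, whose protein is held at the cytoskeleton by a dynein light chain, lay at 0.616, 2.67 and 1.25 CPM around 0.840 to 1.02 CPM.

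*Bad* and *Bid* showed the reverse split. *Bad* lay at 22.6, 8.67 and 12.0 CPM in the homozygous libraries against 12.3 to 15.2 CPM in Cryaa-WT, and *Bid* at 10.2, 4.11 and 3.95 CPM against 5.67 to 6.18 CPM. Replicate 1 was above and replicates 2 and 3 were below every WT library for both genes, and the share of all genes with this split was not counted either. *Bcl2l1* lay at 14.3, 8.73 and 10.9 CPM against 9.15 to 14.5 CPM.

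*Bcl2l11* at 3.41 to 3.96 CPM and *Bok* at 2.40 to 3.34 CPM were even across the 3 homozygous libraries, as was *Pmaip1* at 0.126 to 0.152 CPM. Log2 fold changes against Cryaa-WT were -0.01 for *Bcl2l11* with a 95% interval from -0.56 to 0.54 and 0.53 for *Bok* with an interval from -0.46 to 1.53. *Pmaip1*, at 4 to 6 counts a library, had an interval from -2.10 to 0.58, and a difference within it was not detectable at this depth.

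Against the heterozygous lenses no member passed edgeR's quasi-likelihood test in Cryaa-R49C-homo, where 8.32% of all genes did, and none passed with DESeq2. The unadjusted p was under 0.05 for 3 members, *Mcl1*, *Bak1* and *Bmf*, and for 23.7% of all genes, and with DESeq2 it was for 2 members and 23.5% of all genes. Their log2 fold changes were 0.62 ± 0.29 (SE) for *Mcl1*, 1.57 ± 0.51 for *Bak1* (FDR = 0.0597) and 1.14 ± 0.49 for *Bmf*. Libraries did not overlap for 1 member, *Bcl2l11*, against 22% of all genes. Without Cryaa-R49C-homo replicate 1, 4 of the 10 members passed edgeR's test, where 28.7% of all genes then did. These were *Mcl1* (log2 fold change 0.89), *Bak1* (2.08), *Bmf* (1.53) and *Bad* (-0.56).

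In Cryaa-R49C-het against Cryaa-WT no member passed edgeR's test or DESeq2, and 0.00717% of all genes passed with edgeR. No member had an unadjusted p under 0.05, where 5.08% of all genes did with edgeR and 5.04% with DESeq2. Log2 fold changes lay between -0.63 for *Pmaip1* and 0.37 for *Bak1*. Libraries did not overlap for 2 members, against 21.9% of all genes. These were *Bcl2l11*, at 3.40, 3.00 and 2.32 CPM in Cryaa-R49C-het and 3.70, 4.02 and 3.54 CPM in Cryaa-WT, and *Bmf*, at 0.762, 0.758 and 0.523 CPM and 1.02, 0.979 and 0.840 CPM. The comparisons of the 2 mutant genotypes with WT share the same 3 Cryaa-WT libraries.

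**Figure D5:**
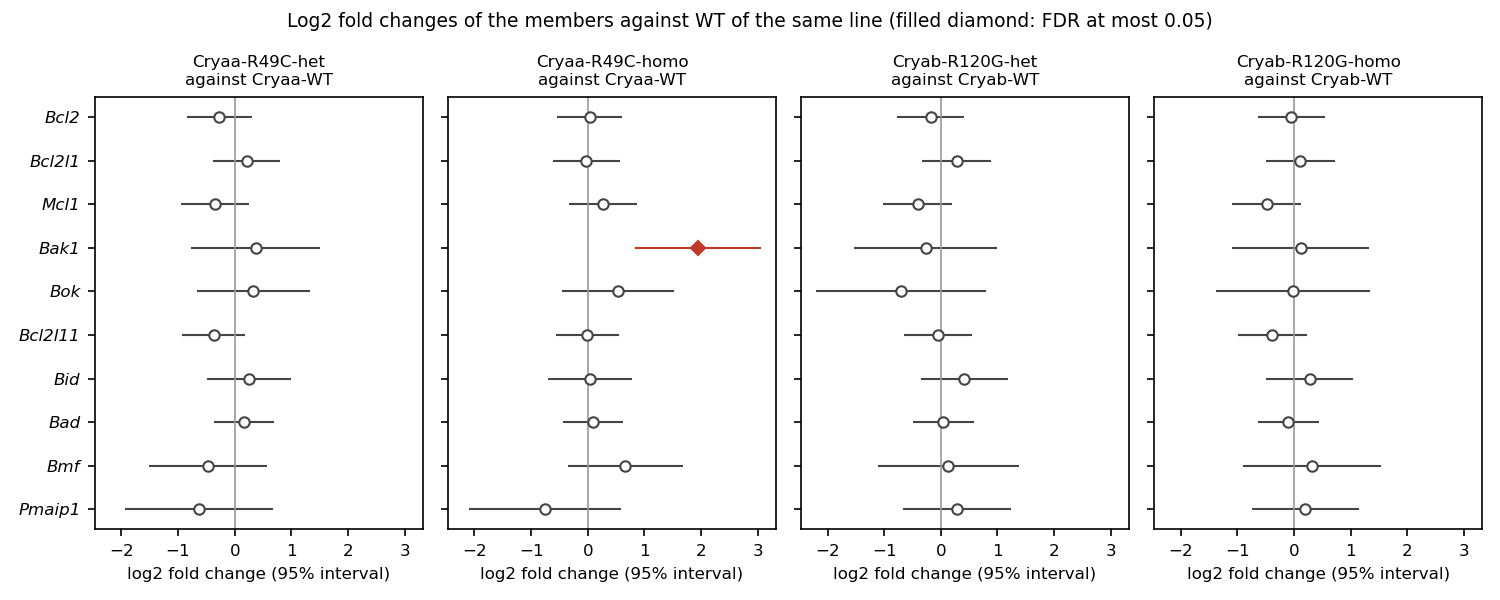
Log2 fold changes (x axes, with 95% intervals) of the 10 members in each mutant genotype against WT of its own line. *Bak1* at 1.95 in Cryaa-R49C-homo is the only filled diamond (FDR at most 0.05), and intervals are widest for *Bok*, *Bmf*, *Bak1* and *Pmaip1*, the members with the fewest counts.

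The pathway around the members was read from 6 gene lists. Of the other Bcl2 family genes, 7 of 16 were tested, and 3 were higher and none lower in Cryaa-R49C-homo against Cryaa-WT, with a list median of 0.33, where 4.87% of all genes were higher and 4.92% lower. *Bbc3*, which encodes the BH3-only protein Puma, lay at 0.426, 0.540 and 0.245 CPM in Cryaa-WT and at 1.83, 3.55 and 4.60 CPM in Cryaa-R49C-homo. All 3 homozygous libraries were above all WT libraries, and the log2 fold change was 3.02 ± 0.49 (SE, FDR = 0.000245).

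*Bax*, the partner effector of *Bak1*, lay at 14.8, 15.6 and 17.1 CPM in Cryaa-WT and at 36.6, 27.6 and 31.8 CPM in Cryaa-R49C-homo, again without overlap. Its log2 fold change was 1.01 ± 0.19 (SE, FDR = 0.00109). Unlike *Bak1*, *Bax* was highest in replicate 1, and *Bax* and *Bbc3* passed with any 1 of these 6 libraries left out. *Bnip3*, a mitochondrial BH3-like protein of mitophagy, had a log2 fold change of 0.92 (FDR = 0.0474), from 37.9 CPM in replicate 1 and 16.9 and 14.5 CPM in the others, and of 0.35 without replicate 1, where it did not pass.

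Of 10 tested transcriptional regulators of the family, 2 were higher and none lower, with a list median of 0.54. *Ddit3*, which encodes CHOP, a factor induced by unfolded proteins, lay at 3.32, 3.91 and 3.47 CPM in Cryaa-WT and at 166, 109 and 110 CPM in Cryaa-R49C-homo, a log2 fold change of 5.17 ± 0.31 (SE, FDR = 1.99e-10). *Atf4*, which acts upstream of it, was higher by 1.75 ± 0.21 on the log2 scale (SE, FDR = 6.11e-06).

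The *Bax*, *Bbc3* and *Ddit3* differences, present in all 3 homozygous libraries, stood beside lower sums of lens and pigment cell markers and the higher macrophage sum given above in the same 3. The lens fibre sum was 23984 to 30426 CPM in Cryaa-R49C-homo and 31883 to 52764 CPM in Cryaa-WT, with 2 of 5 tested markers lower (*Bfsp1* and *Crybb1*). The sum of 5 lens epithelium markers was 89.4 to 92.6 CPM against 120 to 134 CPM, with 1 of 5 lower, the gap junction gene *Gja1* (FDR = 4.77e-05). The pigment sum over 8 genes was 9.73 to 15.1 CPM against 18.6 to 36.0 CPM, with 2 of 8 lower (*Pmel* and *Mlana*). Photoreceptor and inner retina markers, at 18.7 to 30.6 CPM against 16.7 to 57.0 CPM, overlapped, and none of 10 passed. Of these 5 lower genes, *Bfsp1*, *Gja1* and *Pmel* passed with any 1 library of the 2 groups left out, and only *Bfsp1* and *Gja1* passed with library size alone, where the other 3 kept negative values. With only the libraries of this comparison fitted, *Bfsp1*, *Gja1* and *Pmel* passed and *Crybb1* and *Mlana* did not. *Crybb1* also did not pass when every gene with a count was kept. The part of these cells in the *Bax*, *Bbc3* and *Ddit3* differences was not tested.

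Of 10 tested death receptors and adaptors 1 was higher, *Tnfrsf12a*, the receptor for the cytokine Tweak, with a log2 fold change of 1.52 (FDR = 0.0269). The list median was 0.00. None of 10 tested apoptosome and caspase genes and none of 9 inhibitors of apoptosis and their antagonists passed, with list medians of -0.098 and 0.08.

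Among 16 binding partners and modifiers of the family proteins, 1 was higher and 3 were lower, with a list median of -0.14. *Dynll2*, the dynein light chain that binds Bmf, lay at 20.1, 56.3 and 46.2 CPM in the homozygous libraries against 15.7 to 24.9 CPM in Cryaa-WT (log2 fold change 0.98, FDR = 0.0281), a split like that of *Bak1*. *Vdac1*, the most abundant channel of the outer mitochondrial membrane, had a log2 fold change of -0.75 (FDR = 0.00971). *Akt1*, the kinase that phosphorylates Bad, had one of -0.93 (FDR = 0.0109). *Usp9x*, a deubiquitinase of Mcl-1 that is named here after its values were seen, had one of -0.89 (FDR = 0.0393).

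Scaling by library size alone raised the all-gene median in this comparison to 0.41 on the log2 scale. Under it *Bak1*, *Bax*, *Bbc3*, *Bnip3*, *Ddit3*, *Atf4*, *Tnfrsf12a* and *Dynll2* were still higher past the threshold, and *Vdac1*, *Akt1* and *Usp9x* kept negative values of -0.33, -0.47 and -0.46 but no longer passed. With only the 6 libraries of this comparison, *Ddit3*, *Atf4*, *Bbc3* and *Tnfrsf12a* passed and *Bax* (1.04), *Bnip3* (0.95), *Dynll2* (0.98), *Vdac1* (-0.73), *Akt1* (-0.91) and *Usp9x* (-0.89) did not. *Ddit3*, *Atf4*, *Bbc3*, *Bax* and *Vdac1* passed with any 1 library of these groups left out. Calls were lost for *Bnip3* and *Tnfrsf12a* without homozygous replicate 1 or any WT library, and for *Dynll2* without homozygous replicate 2 or 3 or WT replicate 1 or 3. They were lost for *Akt1* without homozygous replicate 2 or WT replicate 1 or 2, and for *Usp9x* without homozygous replicate 1 or 3 or WT replicate 1 or 2.

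In the *Cryab*-R120G line no member passed edgeR's test in Cryab-R120G-het or Cryab-R120G-homo against Cryab-WT or in Cryab-R120G-homo against Cryab-R120G-het. Of all genes, 0.00717%, 0.0502% and 0% passed. No member had an unadjusted p under 0.05 in these comparisons by edgeR, where 3.82%, 6.11% and 1.96% of all genes did, or by DESeq2, where 3.84%, 6.19% and 1.87% did. No member's libraries were separated, against 10.1%, 9% and 6.86% of all genes. No gene of the 6 pathway lists passed in either comparison with Cryab-WT.

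The largest values in Cryab-R120G-homo against Cryab-WT were -0.48 for *Mcl1*, with a 95% interval from -1.08 to 0.13, and -0.38 for *Bcl2l11*, with an interval from -0.98 to 0.22. *Bak1* lay at 1.10, 0.733 and 0.667 CPM in Cryab-WT and at 0.917, 1.04 and 0.688 CPM in Cryab-R120G-homo, a log2 fold change of 0.12 with an interval from -1.09 to 1.33. These groups overlapped fully, on 9 to 19 counts a library. *Bok* had between 0 and 15 counts in a library of this line. The library with 0 counts, Cryab-R120G-het replicate 1, allows a level of up to 0.270 CPM (3 counts, counting error only).

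Cryab-WT replicate 1 had the lowest *Bid* of all 18 libraries, 2.31 CPM against 8.0 and 8.38 CPM in the other 2 Cryab-WT libraries, the lowest *Bcl2l1*, at 5.06 CPM against 14.3 and 8.08 CPM, and 1 count of *Bok*. Its *Mcl1*, at 27.0 CPM, was above the 13.9 and 20.6 CPM of the others. The summed level of 10 photoreceptor and inner retina markers was 715 CPM in this library against 19.4 and 74.4 CPM in the others, and that of 7 erythrocyte markers 146 CPM against 15.6 and 24.3 CPM. The mutant libraries of this line also held such sums, with 88.6 to 1092 CPM for the photoreceptor and inner retina list and 49.2 to 451 CPM for the erythrocyte list. In the 3 of them with the highest photoreceptor sums, Cryab-R120G-het replicate 1 (560 CPM) and Cryab-R120G-homo replicates 1 and 2 (1092 and 562 CPM), *Bid* lay at 7.27 to 7.53 CPM and *Bcl2l1* at 11.4 to 11.8 CPM, above Cryab-WT replicate 1 for both genes. These 3 libraries also differ from it in genotype, and the part of these cells in the values of Cryab-WT replicate 1 was not tested.

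The difference between the lines in the homozygous effect was tested with an interaction contrast, which also holds the difference in age. No member passed edgeR's test, where 2.91% of all genes did, and none passed with DESeq2. The unadjusted p was under 0.05 for 1 member by either tool, and for 15.4% of all genes with edgeR and 15.6% with DESeq2. This was *Bak1*, whose difference of log2 fold changes was 1.82 ± 0.79 (SE, FDR = 0.262). Without Cryaa-R49C-homo replicate 1 it was 2.32 (FDR = 0.00945), where 12.5% of all genes passed. In the same contrast *Bbc3* differed by 3.97 ± 0.78 (FDR = 0.00471) and *Bax* by 1.28 ± 0.27 (FDR = 0.00850).

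The last comparison set Cryab-WT at 14 days against Cryaa-WT at 2 days, 2 groups of WT lenses from different lines. Of the 10 members, 1 was higher and 1 was lower, where 11.7% of all genes were higher and 11.5% were lower. Libraries did not overlap for 4 members, *Pmaip1*, *Bak1* and *Bad* higher and *Bok* lower, against 43.2% of all genes. The median log2 fold change was 0.11 for the members and -0.07 for all genes.

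*Pmaip1*, the gene of the BH3-only protein Noxa that neutralises Mcl-1, lay at 0.255, 0.304 and 0.140 CPM in Cryaa-WT (6, 9 and 4 counts) and at 2.53, 2.80 and 1.85 CPM in Cryab-WT (23, 42 and 25 counts). The log2 fold change was 3.33 ± 0.54 (SE, FDR = 0.000141), the largest of any member in any comparison. It stayed between 3.06 and 3.58 and past the threshold when any 1 of these 6 libraries was left out, and it was 1.88 with library size alone. In the mutants of the *Cryab* line *Pmaip1* lay at 1.80, 1.89 and 5.04 CPM (het) and at 1.83, 4.23 and 2.14 CPM (homo). All 9 libraries of this line were above all 9 of the *Cryaa* line. The share of all genes separated in this way over the 18 libraries was not counted, and between the WT groups alone it was 43.2%.

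*Bok* lay at 1.62, 1.48 and 3.12 CPM in Cryaa-WT (38, 44 and 89 counts) and at 0.110, 0.800 and 0.742 CPM in Cryab-WT (1, 12 and 10 counts). The log2 fold change was -1.81 ± 0.58 (SE, FDR = 0.0282). It did not pass without Cryaa-WT replicate 3 (-1.39, FDR = 0.148), without Cryab-WT replicate 1 (-1.42, FDR = 0.0814) or without Cryab-WT replicate 3 (-2.02, FDR = 0.0581). *Bok* was at or below 0.825 CPM in every library of the *Cryab* line and at or above 1.48 CPM in every library of the *Cryaa* line. For this separation, too, the share of all genes was not counted.

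Macrophage, vessel and pigment cell markers were lower at 14 days. The summed level of 11 macrophage markers was 1.20 to 2.97 CPM in Cryab-WT and 8.57 to 21.7 CPM in Cryaa-WT, with 10 of 10 tested markers lower, and *Adgre1* had 0 counts in Cryab-WT. The vessel and mesenchyme sum was 17.9 to 20.8 CPM against 43.6 to 74.0 CPM, with 7 of 10 lower, and the pigment sum over 8 genes was 6.60 to 8.31 CPM against 18.6 to 36.0 CPM, with 5 of 8 lower. The lens fibre sum was 99487 to 113962 CPM against 31883 to 52764 CPM. The part of these cells in the *Bok* and *Pmaip1* differences was not tested.

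Scaling mattered most in this comparison. With library size alone the all-gene median was -1.61 on the log2 scale, and 11436 genes were lower and 157 higher in place of 1603 and 1634. *Bok* remained lower (-3.45) and *Pmaip1* higher (1.88) under that scaling, while *Bcl2*, *Mcl1*, *Bid* and *Bad* turned from values of 0.33, 0.15, 0.08 and 0.35 to negative values past the threshold.

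In the pathway lists at 14 days against 2 days, *Fas*, the death receptor of Fas ligand, lay at 2.80 to 6.13 CPM in Cryaa-WT and at 29.4 to 45.4 CPM in Cryab-WT, and was higher by 2.97 ± 0.34 on the log2 scale (SE, FDR = 2.31e-06). *Tnfrsf1a*, the main receptor for tumour necrosis factor, was lower (-3.14). The initiator caspase *Casp8* (-2.89) was lower, as were *Birc5*, which encodes the mitotic regulator survivin (-1.47), *Sept4* (-1.30) and *Trp53*, which encodes p53 (-0.999). With library size alone *Fas* was still higher past the threshold. The lower genes among these 6 also kept their call, but that scaling made 11436 genes lower and 157 higher, so it is no check on them. With 1 library left out, *Sept4* was lost without Cryaa-WT replicate 3 or Cryab-WT replicate 2 or 3, and *Trp53* without Cryaa-WT replicate 3 or Cryab-WT replicate 3.

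*Bnip3l* (0.88), *Bcl2l2* (1.05), *Dynll2* (1.15), *Dynll1* (0.64), *Atf4* (1.26) and *Cycs*, which encodes cytochrome c (0.81), were higher after TMM scaling but had negative values with library size alone. Of these, *Dynll1* was lost without any 1 of the 6 libraries but Cryaa-WT replicate 2, and *Cycs* without any 1 but Cryaa-WT replicate 1. By list, 3 of 7 other family genes were higher, 1 of 10 apoptosome and caspase genes was higher and 1 was lower, and 2 of 9 inhibitors of apoptosis and their antagonists were lower. Of the death receptors and adaptors 2 were higher and 2 lower of 10, of the regulators 2 and 2 of 10, and of the partners and modifiers 2 were higher of 16. The other genes in these counts were *Bnip3*, *Tnfrsf12a* and *Cebpb* among the higher and *Tnfrsf21* and *E2f1* among the lower, of which *Cebpb*, *Tnfrsf21* and *E2f1* fall outside the naming rule and are listed after their values were seen.

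For the 4 members whose 6 group means spanned at least 1 on the log2 CPM scale, the genes with the most similar pattern were sought by the root-mean-square distance between centred group means. The span was 3.63 for *Pmaip1*, 3.30 for *Bok*, 1.4 for *Bak1* and 1.14 for *Bmf*. The nearest genes were *Mndal* (distance 0.0566) and *Llph* (0.0982) for *Bak1*, where the median gene lay at 0.592. They were *Golm1* (0.171) and *Hells* (0.201) for *Bok*, where the median was 1.29. For *Bmf* they were *Cdan1* (0.0709) and *Fam160b1* (0.0870), with a median of 0.512, and for *Pmaip1* they were *Calr4* (0.174) and *Fas* (0.244), with a median of 1.78. *Bcl2*, *Bcl2l1*, *Mcl1*, *Bcl2l11*, *Bid* and *Bad* spanned less than 1 on this scale.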

How the data were processed

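Per the labels and the study's methods, the authors prepared poly-A libraries with a Clontech kit and sequenced single 50-base reads. They aligned them with STAR 2.0.4b to GRCm38 and counted unique, unambiguous reads with featureCounts 1.4.5. The deposited count table holds raw counts per gene, 41422 lines for 40800 Ensembl identifiers, of which repeated identical lines were kept once. The authors' RPKM values (deposited CPM divided by gene length) gave the gene lengths and were a scaling alternative. Deposited CPM and moderated log2 CPM were not used.

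Counts of 13938 genes kept by filterByExpr, of 26547 with at least 1 count, were TMM-scaled and fitted in edgeR 4.0.16 (R 4.3.3) as 1 model of 6 groups over 18 libraries with robust dispersions. The filter was chosen because genes with 1 count made the prior degrees of freedom infinite when every counted gene was kept, as in the study. Contrasts used the quasi-likelihood test with Benjamini-Hochberg adjustment over all genes (FDR threshold 0.05), and each standard error is the log2 fold change over the root of its F. The code was tested on simulated counts. Intervals, floors and p-values cover the spread between pooled libraries or counting error only.

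The members and gene lists were chosen with earlier results of these data known. Named genes were the 10 members, at most 3 genes of each pathway list with the smallest FDR in Cryaa-R49C-homo against Cryaa-WT, at most 2 in another comparison with WT, *Ddit3*, and the 2 nearest genes of each member whose group means span at least 1. Same-numbered libraries of Cryab-WT and Cryab-R120G-homo deviated together from their group means (r = 0.28, 0.18 and 0.16), so a replicate block was fitted, and in the other pairs of groups at least 1 correlation was below 0.1. Alternatives were other scalings, no filter, DESeq2 1.42.0, a likelihood-ratio test, only the groups compared, and 1 library left out at a time. Positions came from GENCODE vM21, and protein sequences were not used here. Some listed items are not reported here, and list counts and sums leave them out.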

Additional observations from a re-analysis of the deposited data

How the results depend on the processing

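With only the groups compared, 0 members passed in Cryaa-R49C-homo against Cryaa-WT, and leaving out 1 library gave 0 to 1, where 3.70% and 5.03% to 21.5% of all genes passed. In Cryaa-R49C-homo against Cryaa-R49C-het, 1 member (*Bak1*) passed with every counted gene kept (5.35% of all genes) and 2 (*Bak1* and *Mcl1*) with the likelihood-ratio test (21.9%), and leaving out 1 library gave 0 to 4 (3.16% to 28.7%, both highest without Cryaa-R49C-homo replicate 1). The difference between the lines gave 0 to 1 with 1 library left out (1.68% to 12.5%). In Cryab-WT at 14 days against Cryaa-WT at 2 days, library size alone gave 9 members, where 83.2% of all genes passed, and leaving out 1 library gave 1 to 2 (12.4% to 21.8%). Library size alone reversed *Bcl2* (-1.20), *Mcl1* (-1.40), *Bid* (-1.46) and *Bad* (-1.20) there, and *Bad* in Cryaa-R49C-homo against Cryaa-R49C-het (0.17). With 1 library left out, *Bad* in the latter ran from -0.56 to 0.19, and between the WT groups *Mcl1* ran from -0.10 to 0.36, *Bcl2l11* from -0.33 to 0.011 and *Bid* from -0.18 to 0.45.

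The replicate block changed the count of members in no comparison, with 1 in Cryaa-R49C-homo against Cryaa-WT (*Bak1* 1.79, FDR = 0.0383; 10.3% of all genes passed), 2 between the WT groups (25.1%) and 0 elsewhere. It turned *Bid* between the WT groups to -0.017. In Cryaa-R49C-homo against Cryaa-WT the call of *Bnip3* was lost with the block (log2 fold change 0.82) and with the likelihood-ratio test (0.58). In the pairs of groups where the numbers did not pair the libraries, same-number correlations ran from -0.28 to 0.48.

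Of 634 member values under the settings other than leaving a library out, 36 changed sign, 20 of them with library size alone, 1 call was lost and 10 were gained. Deposited RPKM, which lack TMM scaling, moved 16 of 20 WT levels per length by more than 1 SD. Depth limited *Pmaip1* in the *Cryaa* line and *Bok*, *Bmf* and *Bak1* in the *Cryab* line, at 19 counts or fewer a library.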
